A study of Arabidopsis thaliana with 24 samples.

Results

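Cytosolic ribosomal protein genes encode the proteins that, with ribosomal RNA, make up the ribosomes of the cytosol. Described here are 48 of them, taken by locus name from a list of cytosolic RPL and RPS genes. The list was made with earlier results of these data known. All 48 were found among the 16183 genes of the deposited table. Of the 48, 32 encode proteins of the large subunit (RPL) and 16 of the small subunit (RPS). Some of the RPL genes are also known by other names, which are used here because the annotation gives them, namely PGY1 (RPL10aB), PGY2 (RPL9C), STV1 (RPL24B) and BBC1 (RPL13B).

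The plants were wild-type Arabidopsis thaliana seedlings of accession Col-0, 7 days old, from whose roots and shoots RNA was taken separately. Each organ had a control group kept in water for 1 h and groups exposed to salicylhydroxamic acid (SHAM) for 1, 2 and 3 h, with 3 libraries in each of the 8 groups and 30 to 50 seedlings pooled per replicate. SHAM inhibits the alternative oxidase of plant mitochondria and also lipoxygenases and peroxidases. The sample labels give 1 mM SHAM, whereas protocol text gives 0.1 mM and, elsewhere, 30% polyethylene glycol (PEG) with the SHAM, so neither the dose nor the presence of PEG in the SHAM solution could be settled. Because water was sampled at 1 h alone, the 2 h and 3 h differences from water also hold the time spent in solution, and all comparisons with water within an organ share the same 3 control libraries.

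Most plant ribosomal proteins are encoded by small families of near-equivalent genes, and the copies are transcribed to different extents in different organs. Their messages are among the most abundant of dividing and growing cells, and the TOR kinase pathway, which reads nutrient and energy supply, controls ribosome production in plants. The small subunit decodes the message and the large subunit forms the peptide bond, and both are assembled in the nucleolus before export to the cytosol.

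The genes are grouped here by the place of their proteins in the ribosome. In the small subunit, 5 encode proteins of the head, namely RPS5B (AT2G37270), RPS5A (AT3G11940), RPS10B (AT5G41520), RPS18A (AT1G22780) and RPS18C (AT4G09800). Another 11 encode proteins of the body and platform, namely RPSAA (AT1G72370), RPS3aA (AT3G04840), RPS3aB (AT4G34670), RPS4A (AT2G17360), RPS6A (AT4G31700), RPS6B (AT5G10360), RPS9B (AT5G15200), RPS9C (AT5G39850), RPS13A (AT4G00100), RPS14A (AT2G36160) and RPS14B (AT3G11510). In the large subunit, 4 encode proteins that bind the 5S RNA, namely RPL5A (AT3G25520), RPL5B (AT5G39740), RPL16A (AT2G42740) and RPL16B (AT4G18730). Proteins that reach towards the peptidyl transferase centre, where the peptide bond is formed, are encoded by RPL3A (AT1G43170), RPL8A (AT2G18020), RPL8C (AT4G36130) and RPL10A (AT1G14320). The exit tunnel for the growing peptide, or its mouth, is lined by the proteins of RPL4A (AT3G09630), RPL4D (AT5G02870), RPL17B (AT1G67430), RPL19A (AT1G02780), RPL23aB (AT3G55280) and RPL26A (AT3G49910). The stalks, which handle transfer RNA and factors at the subunit's flanks, include the proteins of RPL10aA (AT1G08360), PGY1 (AT2G27530) and RPL12A (AT2G37190). The other 15 large-subunit genes are RPL7aA (AT2G47610), RPL9B (AT1G33120), PGY2 (AT1G33140), BBC1 (AT3G49010), RPL13aA (AT3G07110), RPL13aD (AT5G48760), RPL14B (AT4G27090), RPL15A (AT4G16720), RPL18 (AT3G05590), RPL18C (AT5G27850), RPL21A (AT1G09590), RPL23A (AT1G04480), RPL24A (AT2G36620), STV1 (AT3G53020) and RPL27aC (AT1G70600).

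Promoters of plant ribosomal protein genes are known for the telobox and for site II elements, so the letters of both were searched on both strands from 250 bases before to 50 bases after the annotated gene start (RefSeq annotation of TAIR10.1). The telobox letters AAACCCTA were present in 23 of the 48 promoters (47.9%), in 46.9% of 162 other cytosolic ribosomal protein genes of the table and in 5.21% of the 15782 promoters searched in all. The site II letters TGGGCC were present in 33 promoters (68.8%) against 18.8% of all, and TGGGCT in 28 (58.3%) against 16.4%. Either site II form was found in 39 of the 48 (81.2%), in 75.3% of the other ribosomal protein genes and in 25.3% of all promoters. The telobox and a site II form stood in the same window in 18 of the 48 (37.5%), against 2.37% of all. The site II forms differ in their last letter alone, a promoter was counted once however many matches it held, and a match describes the letters and not a bound factor.

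The shallowest library, root water replicate 2, had 862731 counts and the deepest, shoot water replicate 3, had 3622300, which sets the number of counts behind each level in CPM (counts scaled to a common library total). Shoot marker genes (8 genes of photosynthesis) held 6.35% to 9.52% of counts in the shoot libraries and 0.0247% to 0.138% in the root libraries, except root SHAM 1 h replicate 1 with 1.19%. Root marker genes (8 genes) held 0.0722% to 0.545% of root counts and 0.0166% to 0.048% of shoot counts, and ran within roots from 0.438% to 0.545% in water to 0.0722% to 0.0840% at 3 h of SHAM. Root SHAM 1 h replicate 2 also stood apart, with 2.22% of its counts on mitochondria-encoded genes, the lowest of the 12 root libraries. In shoots the 3 SHAM 2 h libraries held between 0.173% and 0.249% of counts on mitochondria-encoded and between 0.112% and 0.197% on chloroplast-encoded genes, below the water libraries (0.654% to 0.764% and 0.650% to 0.846%). Shoot SHAM 1 h replicate 3 held 0.292% and 0.127%. These are bulk organs, so fewer cells of a type and less RNA per cell cannot be told apart in any value given here. Nothing in the sources used here says whether reads of one molecule were collapsed, and counting intervals would cover counting error only.

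In roots the 48 genes together took 3.39% to 4.88% of all counts of a library (median 4.33%, 12 libraries), and in shoots 0.987% to 1.63% (median 1.37%). The highest shoot library stayed below the lowest root library. Within shoots the water libraries held between 0.987% and 1.52%, the SHAM libraries of 1 h between 1.31% and 1.63%, those of 2 h between 1.42% and 1.5%, and those of 3 h between 1.03% and 1.12%. The 3 h libraries lay below all 1 h and 2 h SHAM libraries, while the water libraries spread over nearly the whole range. Within roots the ranges overlapped throughout, with water between 3.84% and 4.48%, SHAM of 1 h between 4.08% and 4.88%, of 2 h between 3.39% and 4.72% and of 3 h between 3.42% and 4.66%. All cytosolic ribosomal protein genes of the table (the 48 and 162 others) took 12.7% to 18.1% of counts in roots and 3.82% to 6.26% in shoots.

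**Figure D1:**
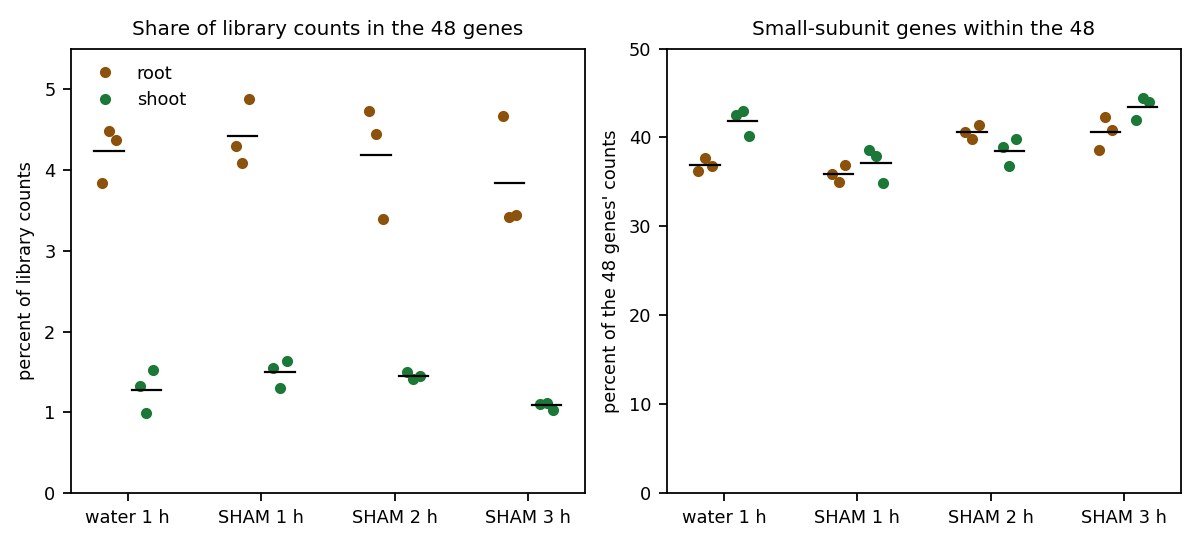
Left, share of all counts of a library, in percent, that fell on the 48 cytosolic ribosomal protein genes; right, share of the counts of these 48 genes, in percent, that fell on the small-subunit genes, both by organ and treatment (points are libraries, bars the means of 3 libraries). Root libraries sit between 3.39% and 4.88% on the left and shoot libraries between 0.987% and 1.63%, and on the right the shoot libraries of 1 h and 2 h of SHAM lie below those of water.

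The part of the counts of these 48 genes that fell on small-subunit genes differed between some groups. It is weighted towards the most abundant of the 48, and the other cytosolic ribosomal protein genes were not split by subunit. Small-subunit genes held between 36.3% and 37.7% of the counts of the 48 genes in root water, between 34.9% and 36.9% after 1 h of SHAM, between 39.8% and 41.3% after 2 h and between 38.6% and 42.3% after 3 h. The 2 h and 3 h root libraries thus lay above every water and 1 h library. In shoots the small-subunit part was between 40.1% and 42.9% in water, between 34.8% and 38.6% after 1 h, between 36.8% and 39.9% after 2 h and between 41.9% and 44.4% after 3 h. All 1 h and 2 h shoot libraries lay below the water libraries, and the 3 h range overlapped the water range. With 3 libraries against 3, an exact permutation test of such a share cannot go below p = 0.1, so these ranges are given without a test.

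One property of the data touches many of the results that follow. The 48 genes fell into 33 with at least 5000 counts over the 24 libraries and 15 with fewer, a division made after the values were seen and used as a description. The 15 are RPL16A, RPS9C, RPL23aB, RPL9B, RPS5B, RPS4A, RPL10aA, RPL18C, RPS18C, PGY2, RPS3aA, RPL5B, PGY1, RPL5A and RPL14B. Within a group of replicates their summed normalized level ran opposite to library depth. In root water it was 1322, 3228 and 1535 CPM in replicates 1 to 3, whose totals were 1891601, 862731 and 1883347 counts, and in shoot water 436, 224 and 114 CPM at totals of 1348319, 1551009 and 3622300. The deepest library had the lowest sum in 7 of the 8 groups and the shallowest had the highest in 7 of 8. The highest sum within a group was 1.9 to 3.81 times the lowest, against 1.05 to 1.41 times for the other 33 genes. The sum of the 33 is weighted towards its most abundant genes, and its genes were not correlated with depth one by one. It can therefore hide single genes that ran opposite to depth. RPL16B, RPL17B and RPL26A, all of the 33, were also highest in the shallowest library of shoot SHAM 1 h. In the whole table, 6368 genes had totals in the range of the 15, 302 to 3883 counts. The correlation r of a gene's log2 level with the log2 library total was taken on deviations from group means. Over the 6368 its median was 0.152 in roots and 0.11 in shoots, and 8.26% and 16% were under -0.7. Over the 15 it was -0.847 and -0.906, with 11 and 12 genes under -0.7.

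In raw counts the same 15 genes gave 2989 to 3351 in the root water libraries and 337 to 601 in the shoot water libraries, a narrower spread than that of the totals. In root SHAM 1 h the raw sums ran from 1373 to 2957, a wider spread than that of the totals, 2062868 to 3246361. None of the 15 had any 50-base stretch of the last 300 transcript bases with more than 1 exact match in the TAIR10.1 genome. Of the other 33 only RPL21A did (7.57% of its stretches). The search took exact matches alone and could miss a copy of a stretch that spans an exon junction. It therefore cannot show how reads of near-identical copies were assigned. Because mean depth also differed between groups, the medians of these 15 genes and of the 33 are given beside the pooled ones below, and a fit with the log2 library total as a covariate, chosen after seeing the data, is quoted where it bears on a call. Mean totals were 1545890 counts in root water, 2554840 in root SHAM 1 h, 2173880 in shoot water and 1664980 in shoot SHAM 1 h.

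**Figure D2:**
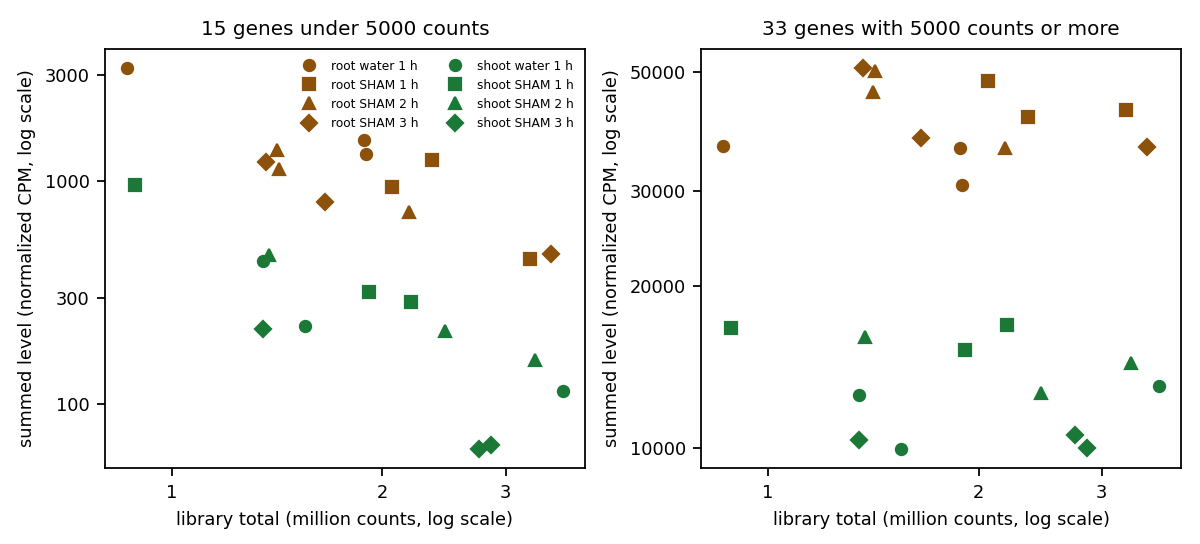
Summed normalized level (CPM, log axis) of the 15 genes with under 5000 counts and of the other 33 against the total counts of each of the 24 libraries, by organ and treatment. The sums of the 15 differ by 1.9 to 3.81 times within a group and fall as depth rises in nearly every group, while those of the 33 differ by 1.05 to 1.41 times. The sum of the 33 is weighted towards its most abundant genes.

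After 1 h of SHAM, shoots had higher levels of 10 of the 46 genes tested there and lower levels of none (edgeR quasi-likelihood test, Benjamini-Hochberg adjusted p under 0.05 over 8570 genes), against 9.36% of all genes called higher and 7.49% called lower. The median log2 fold change of the 46 was 0.53, beside 0.05 over all genes tested, and 35 of the 46 were positive. Large-subunit genes had a median of 0.71 with 8 of 31 called higher, and small-subunit genes a median of 0.15 with 2 of 15; the difference between the subunits was not tested. Among the 33 genes of higher count, 9 were called higher and the median was 0.28 (0.45 in the large and 0.13 in the small subunit). Among the 13 tested genes of lower count all were positive (median 1.07), with 1 call. RPL16A and RPS9C did not pass the filter on low counts in shoots. By place in the ribosome the calls were 2 of 10 in the small-subunit body and platform, 0 of 5 in the head, 0 of 3 at the 5S RNA, 1 of 4 at the peptidyl transferase centre, 2 of 6 along the exit tunnel, 0 of 3 in the stalks and 5 of the other 15.

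RPL8A encodes a protein next to the peptidyl transferase centre. Its normalized level in shoots was 537, 493 and 669 CPM in water and 1062, 1323 and 1312 CPM at 1 h (replicates 1 to 3, as in all such series). Every SHAM library lay above every water library, and the log2 fold change ± SE was 1.12 ± 0.19 (adjusted p = 0.000961). RPL4D, whose protein lines the exit tunnel for the growing peptide, had 193, 183 and 292 CPM in water and 406, 544 and 507 CPM at 1 h, again without overlap, with a log2 fold change of 1.12 ± 0.25 (adjusted p = 0.0073). RPL19A had the smallest change of those called, from 1398, 981 and 1316 to 1735, 1871 and 2009 CPM, 0.60 ± 0.18 (adjusted p = 0.0359). Its groups did not overlap either.

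RPSAA encodes a protein on the solvent side of the small subunit, and it was at 482, 337 and 481 CPM in shoot water and 732, 711 and 963 CPM at 1 h. The lowest SHAM library was well above the highest water library, with a log2 fold change of 0.89 ± 0.19 (adjusted p = 0.00582). RPL27aC, a large-subunit gene, went from 375, 288 and 429 to 683, 569.8 and 767 CPM, a log2 fold change of 0.89 ± 0.20 (adjusted p = 0.00792), and its groups did not overlap. RPL18, of the large subunit, had 248, 213 and 304 CPM and then 353, 466 and 480.2 CPM, 0.76 ± 0.22 (adjusted p = 0.0272). The remaining calls among genes of higher count were RPL24A, BBC1 and RPL15A, with log2 fold changes of 0.95 ± 0.24, 0.93 ± 0.27 and 0.78 ± 0.19 and adjusted p of 0.0131, 0.0282 and 0.0122.

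RPS3aA, a gene of the lower-count class whose protein sits on the small-subunit platform, had the largest log2 fold change of the genes called. It was at 27.6, 10.6 and 5.5 CPM in water and 86.5, 34.1 and 45.2 CPM at 1 h, with a log2 fold change of 1.99 ± 0.60 (adjusted p = 0.0352). Its highest SHAM value came from the shallowest shoot library and its lowest water value from the deepest. With the log2 library total in the fit the log2 fold change was 1.67 (adjusted p = 0.000252). RPL16B, whose protein binds the 5S RNA, gave 135, 116 and 126 CPM in water and 224, 30.4 and 44.8 CPM at 1 h, so that the SHAM libraries lay on both sides of water. The gene was not called (-0.39 ± 0.74, adjusted p = 0.767), although with the log2 library total in the fit it was called lower (-1.38, adjusted p = 0.0364).

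The shoot 1 h calls depended on the control libraries. Without shoot water replicate 2, there were 2 calls left (RPL8A and RPSAA), and without any other single library there were 7 to 11, with 3 of 11 lower when shoot SHAM 1 h replicate 1 was left out. The calls of RPL8A and RPSAA held when any one library of the 12 was left out, with adjusted p up to 0.0111 and 0.0473. Scaling to library size alone, under which the median of all genes moved from 0.05 to -0.20, gave 2 higher and 1 lower with a member median of 0.28. The share of all genes called under that scaling is not given here.

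At 2 h the shoots had 4 of 46 genes called higher and none lower, against 8.38% and 7.44% of all genes, and the median log2 fold change was 0.21 (all genes 0.00), with 0.24 for the 33 genes of higher count and -0.20 for the 13 of lower count. Leaving organelle-encoded genes out of the table, whose share was low in these libraries, also gave 4 calls and a median of 0.21. RPL8A was still above water in every library, at 1031, 872 and 781 CPM, with 0.66 ± 0.19 (adjusted p = 0.0268). RPSAA was at 722, 666 and 717 CPM, 0.69 ± 0.19 (adjusted p = 0.0248), also without overlap. RPL24A, whose protein forms a bridge between the subunits, had 188, 148 and 214 CPM in water and 343, 315 and 413 CPM at 2 h, a log2 fold change of 0.96 ± 0.24 (adjusted p = 0.0133). RPL23A, encoding a protein of the subunit interface, had 183, 112 and 158 CPM in water and 325, 261 and 434 CPM at 2 h, 1.17 ± 0.35 (adjusted p = 0.0354). In both genes the groups were separate.

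RPL4D and RPL27aC, called at 1 h, had log2 fold changes of 0.43 ± 0.25 and 0.28 ± 0.20 at 2 h with adjusted p of 0.277 and 0.401. Their levels at 2 h were 337, 351 and 214 CPM and 477, 467 and 379.7 CPM, and both ranges overlapped those in water. From 1 h to 2 h none of the 46 genes was called by edgeR (2.71% of all genes were called higher and 3.2% lower). Of the 46, 9 had an unadjusted edgeR p under 0.05 and DESeq2 called 2. Neither count has that of all genes beside it, so neither is read as a result about these genes. The median was -0.25, with -0.07 for the 33 genes of higher count and -0.89 for the 13 of lower count. There were 3 called without shoot SHAM 1 h replicate 3. No call of the 2 h comparison survived the removal of shoot water replicate 2, and 1 was left without shoot SHAM 2 h replicate 1.

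At 3 h in shoots, none of the 46 genes was called higher and 3 were called lower than in water, against 6.31% of all genes called higher and 2.68% called lower. Of the 46, 38 were negative, with a median log2 fold change of -0.44 (all genes 0.00). The 33 genes of higher count had a median of -0.22 with 25 negative, and the 13 of lower count a median of -1.29 with all negative. RPL16B was at 3.85, 13.8 and 34.9 CPM against 135, 116 and 126 CPM in water, all SHAM libraries lower, with a log2 fold change of -2.96 ± 0.82 (adjusted p = 0.0372). RPL17B, encoding another protein of the exit tunnel, was at 34.3, 73.6 and 124 CPM against 292, 234 and 342 CPM, -1.92 ± 0.56 (adjusted p = 0.0459). RPL3A, whose protein reaches towards the peptidyl transferase centre, was at 42.3, 73.6 and 50 CPM against 103, 119.6 and 200.3 CPM, -1.35 ± 0.38 (adjusted p = 0.0381). Their SHAM libraries were below every water library. All 3 are of the higher-count class, and at 1 h each was highest in the shallowest shoot library, SHAM 1 h replicate 1. With the log2 library total in the fit the 3 h values were -3.12, -2.03 and -1.35 for RPL16B, RPL17B and RPL3A (adjusted p = 7.21e-05, 0.000521 and 0.00609).

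RPL8A and RPSAA, both called at 1 h, overlapped water at 3 h, RPL8A at 617, 588 and 561 CPM and RPSAA at 499.9, 471 and 473 CPM. Their log2 fold changes against water were 0.05 ± 0.19 and 0.15 ± 0.19, with adjusted p of 0.888 and 0.678. RPL27aC (388, 340.4 and 318 CPM) and RPL4D (331, 254 and 235 CPM) also overlapped water, with -0.06 ± 0.20 and 0.29 ± 0.25. No member was called without shoot water replicate 3 or without shoot SHAM 3 h replicate 1, and 1 was without water replicate 1, water replicate 2 or SHAM 3 h replicate 2. Without shoot SHAM 1 h replicate 1, SHAM 1 h replicate 3 or SHAM 2 h replicate 3, which are not part of the contrast but share its estimate of spread, 8, 7 and 5 genes were called.

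Of the steps between SHAM times, that from 2 h to 3 h in shoots had the most calls among the ribosomal protein genes, with 10 of 46 lower and none higher, against 4.28% of all genes called lower and 4.66% called higher. The median log2 fold change was -0.67 while that of all genes was 0.06, and 41 of the 46 were negative. Large-subunit genes had a median of -0.89 (8 of 31 called) and small-subunit genes -0.33 (2 of 15), a contrast that was not tested. Of the 10, 9 were genes of higher count, whose median was -0.57 (-0.72 in the large and -0.28 in the small subunit). The 13 of lower count had a median of -1.1. Among the 9, RPL16B, RPL3A, RPL7aA and RPS6A were each highest at 2 h in replicate 3, the shallowest library of its group. RPL16B had its highest 3 h level in the shallowest library there as well. The 2 h libraries are also those with a low share of organelle-encoded counts. Without organelle-encoded genes there were again 10 calls with a median of -0.67. This comparison shares its 2 h libraries with that of 2 h against water.

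RPL24A went from 343, 315 and 413 CPM at 2 h to 122, 134 and 161 CPM at 3 h, with a log2 fold change of -1.36 ± 0.24 (adjusted p = 0.004). Its groups were far apart, and the call held with any one of the 12 shoot libraries left out (adjusted p up to 0.0299). RPL21A fell from 505, 495 and 635 to 267, 291 and 318 CPM, -0.90 ± 0.20 (adjusted p = 0.0151), and RPL10A, whose protein joins the large subunit late in assembly, from 455, 367 and 323 to 150.3, 239 and 231 CPM, -0.89 ± 0.24 (adjusted p = 0.0372). Neither gene's groups overlapped. RPL16B (56.4, 75.2 and 256 CPM at 2 h) and RPS3aA (21.1, 30.8 and 50.8 CPM at 2 h) had the largest steps, -2.97 ± 0.82 (adjusted p = 0.0392) and -2.17 ± 0.62 (adjusted p = 0.0446).

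The other 5 calls were RPL3A, RPL23A, RPL13aD, RPS6A and RPL7aA, with log2 fold changes of -1.60 ± 0.38, -1.38 ± 0.35, -1.34 ± 0.33, -1.24 ± 0.35 and -1.19 ± 0.31. RPS6A encodes the ribosomal protein that S6 kinase phosphorylates downstream of TOR, and RPL7aA a protein that binds the ribosomal RNA. These steps have adjusted p between 0.0195 and 0.0437. Without shoot SHAM 3 h replicate 1, 2 h replicate 3 or 3 h replicate 2, respectively, there were 1, 2 and 2 calls left, and without shoot SHAM 2 h replicate 1 or 2 or shoot water replicate 2 there were 5, 5 or 6. Of the 10, RPL24A was the one whose call held in all 12 omissions. With the log2 library total as a covariate, a setting chosen after seeing the data, 26 member genes were called lower. The share of all genes called lower in that fit is not given here, so the rise from 10 is not read as a result about these genes.

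**Figure D3:**
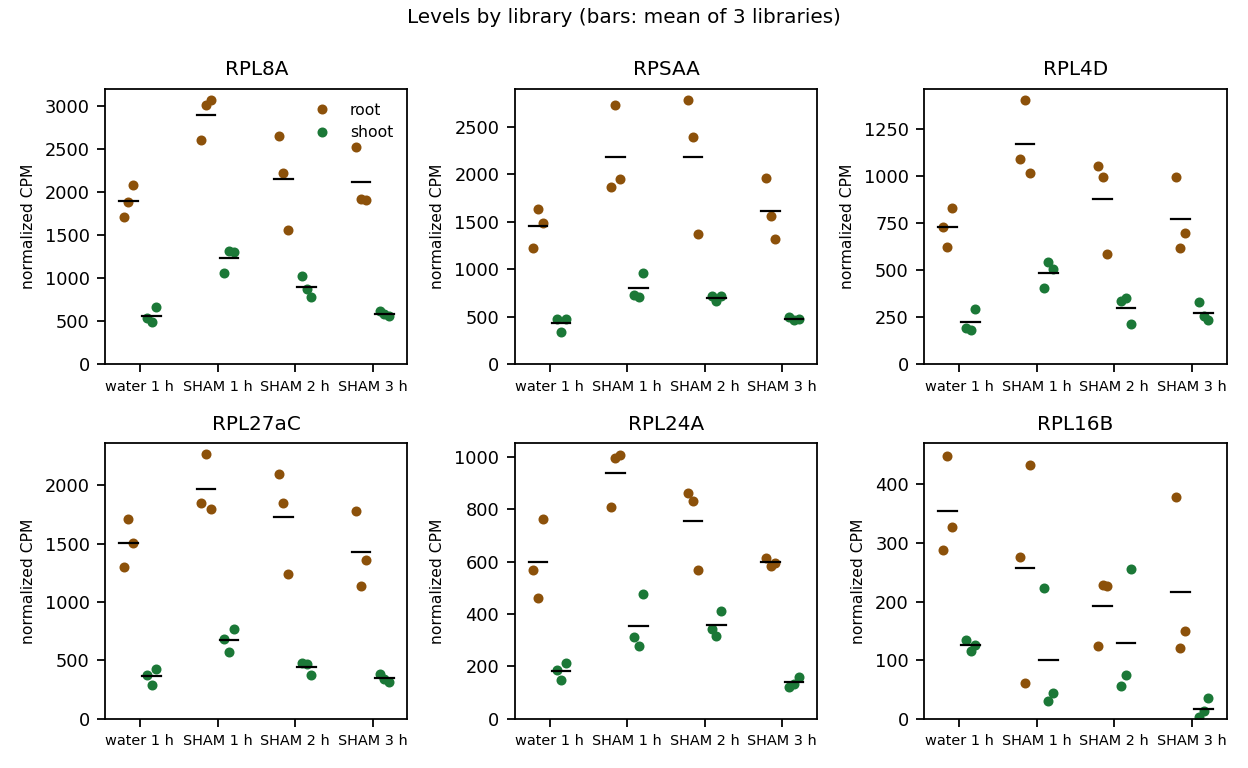
Normalized level (CPM) of 6 ribosomal protein genes described in the text, by organ, treatment and time, with each organ normalized over its own 12 libraries (points are libraries, bars the means of 3 libraries). In shoots RPL8A was between 493 and 669 CPM in water, between 1062 and 1323 CPM at 1 h and between 561 and 617 CPM at 3 h.

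In roots the 48 genes gave few calls at 1 h, with 1 higher and 1 lower against 7.01% and 5.22% of all genes, and the median log2 fold change was 0.16 (all genes 0.04). STV1, encoding an L24 protein known to help re-initiation on messages with upstream reading frames, went from 941, 964 and 1184 CPM in water to 1410, 1612 and 1969 CPM. No SHAM library reached down to the water range, and the log2 fold change was 0.69 ± 0.21 (adjusted p = 0.0421). RPS5B, of the lower-count class and encoding a protein of the small-subunit head, went from 61.9, 141 and 71 to 42.1, 21.1 and 29.3 CPM, -1.55 ± 0.44 (adjusted p = 0.0359). Its highest water value belonged to the shallowest library. With the log2 library total in the fit both calls ended, at -0.71 for RPS5B (adjusted p = 0.223) and 0.79 for STV1 (adjusted p = 0.0535). Of the 33 genes of higher count 28 were positive (median 0.30), and all 15 of lower count were negative (median -1.14).

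RPSAA in roots was at 1228, 1634 and 1491 CPM in water and 1862, 2722 and 1947 CPM at 1 h, with separate ranges but no call (0.59 ± 0.26, adjusted p = 0.138). RPL4D and RPL27aC were also above water in each 1 h library, at 1086, 1401 and 1017 CPM against 728, 624 and 830.1 CPM and at 1846, 2265 and 1801 CPM against 1304, 1710 and 1503 CPM. Their log2 fold changes were 0.68 ± 0.26 (adjusted p = 0.0898) and 0.39 ± 0.23 (adjusted p = 0.252). RPL16B was at 288, 448 and 327 CPM in water and 276, 61.6 and 432 CPM at 1 h, the low value being that of replicate 2, the library with the low share of mitochondria-encoded counts. Without both SHAM 1 h replicates 1 and 2, a setting chosen after seeing the data, no member was called at 1 h. Leaving out single libraries gave none without water replicates 2 or 3 or SHAM 1 h replicates 2 or 3, 1 without water replicate 1 or SHAM 2 h replicates 1 or 2, 4 without SHAM 1 h replicate 1 or SHAM 2 h replicate 3, and 6 without SHAM 3 h replicate 1.

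At 2 h roots had 2 genes called higher and 1 lower, against 8.6% and 5.4% of all genes, and the median was 0.04 (all genes -0.08). That median joins 33 genes of higher count, 25 of them positive with a median of 0.33, and 15 of lower count, all negative with a median of -1.02. RPS14A, encoding a platform protein of the small subunit, was at 1096, 1485 and 1343 CPM in water and 2620, 2335 and 1977 CPM at 2 h, 0.82 ± 0.23 (adjusted p = 0.0255). RPL21A was at 1486, 1471 and 1750 CPM and 3470, 3089 and 1875 CPM, 0.84 ± 0.25 (adjusted p = 0.0341). Both sets of SHAM libraries lay above water. RPL9B, of the lower-count class, was at 63.7, 119 and 60.5 CPM in water and 35.2, 39.1 and 20.4 CPM at 2 h, -1.36 ± 0.43 (adjusted p = 0.0489). None of the 48 was called without water replicates 1 or 3 or SHAM 2 h replicates 1 or 2, and 1 without water replicate 2. Without SHAM 1 h replicate 2, SHAM 2 h replicate 3 or SHAM 3 h replicate 1 there were 9, 6 and 7 calls.

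At 3 h there were 1 gene higher and 7 lower, against 9.99% and 6.4% of all genes. RPS14A remained above water at 3151, 2136 and 1911 CPM, 0.88 ± 0.23 (adjusted p = 0.0163), a call that ended (adjusted p = 0.0712) without root water replicate 1 and held without any other single library. RPL9B was at 25.4, 25.8 and 9.78 CPM, -2.02 ± 0.44 (adjusted p = 0.00659), below every water library, and its call held with any one of the 12 root libraries left out (adjusted p up to 0.036). RPS4A, encoding a protein of the small-subunit body, went from 55.7, 132 and 74.7 to 34.5, 29.2 and 14.7 CPM, -1.76 ± 0.45 (adjusted p = 0.0153). The others called lower were RPS5B, PGY2, RPS3aA, RPL5B and RPL5A, with log2 fold changes of -1.73 ± 0.45, -1.67 ± 0.54, -1.60 ± 0.45, -1.55 ± 0.50 and -1.35 ± 0.44 and adjusted p from 0.0181 to 0.0499. RPL5A and RPL5B encode the protein that carries 5S RNA into the large subunit, and PGY2 and the RPL5 genes are known from mutants with altered leaf polarity.

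All 7 genes called lower in roots at 3 h belong to the 15 of lower count, and all 15 were negative, whereas the other 33 had a median of 0.15 with 1 call. Without root water replicate 2, the shallowest library, RPL9B and RPS14A were the only calls left, and without root SHAM 3 h replicate 3, the deepest of its group, the count was also 2. It was 5 without water replicates 1 or 3 or SHAM 1 h replicate 3, and 4 without SHAM 3 h replicate 2. With the log2 library total as a covariate, a setting chosen after seeing the data, 6 of the 7 were still called lower at 3 h (RPL5A had adjusted p = 0.084), and in all 5 genes were higher and 7 lower. The log2 fold changes were then smaller in size, at -1.57 for RPL9B, -1.30 for RPS4A, -1.23 for RPS5B, -1.19 for RPS3aA, -1.07 for PGY2, -1.01 for RPL5B and -0.91 for RPL5A. Under scaling to library size alone the root medians at 1 h and 2 h turned negative (-0.08 and -0.29) while those of all genes moved to -0.21 and -0.41. The counts became 3, 9 and 12 lower at 1, 2 and 3 h with none higher. The share of all genes called is not given here for the covariate or for this scaling.

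**Figure D4:**
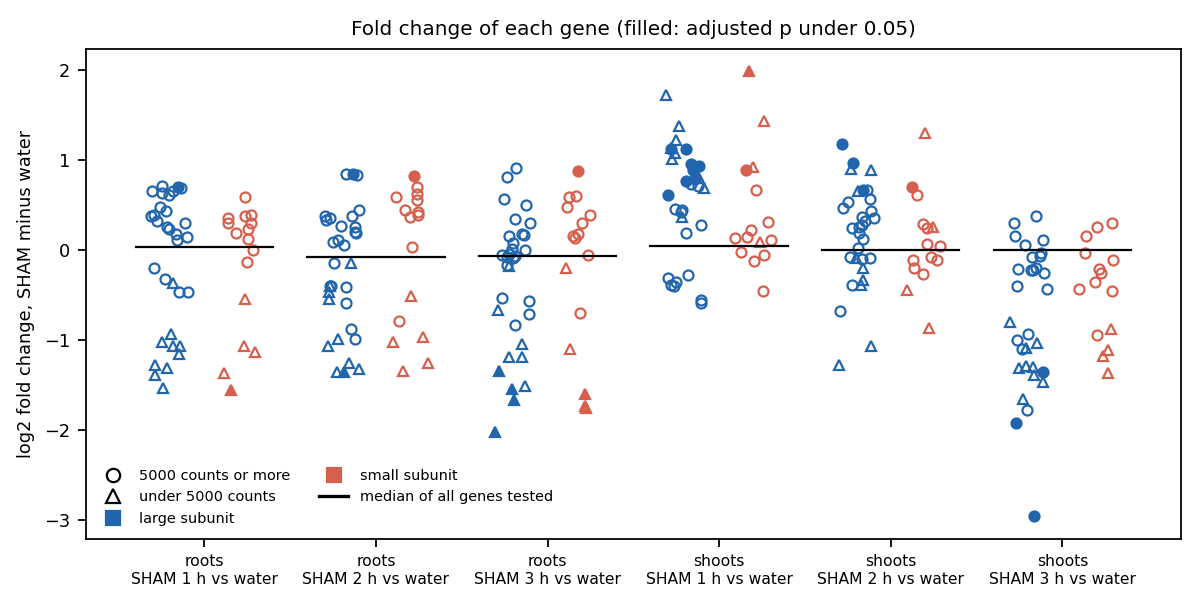
Log2 fold change, SHAM minus water, of each ribosomal protein gene tested in roots and shoots at 1, 2 and 3 h, with large-subunit (blue) and small-subunit (red) genes apart; circles are genes with 5000 counts or more, triangles those with fewer, filled symbols are genes called, and bars mark the median of all genes tested. In roots at 3 h the triangles all lie below 0, and in shoots at 1 h they all lie above it.

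Between SHAM times the roots gave 1 call. RPL10A was at 938, 988 and 1042 CPM at 1 h and 554, 592 and 504 CPM at 2 h, -0.85 ± 0.18 (adjusted p = 0.0232), against 1.81% of all genes called lower and 2.28% higher; in water it was at 748, 667 and 784 CPM. The 2 h libraries were lower than every 1 h and water library, but the call ended when each of 6 of the 12 libraries was left out, for example without root SHAM 2 h replicate 3 (adjusted p = 0.099), and with the log2 library total in the fit (-0.78, adjusted p = 0.0514). From 2 h to 3 h edgeR called none of the 48 and none of 10642 genes (0%), and 1 of the 48 had an unadjusted p under 0.05. DESeq2 also called 0 of the 48 there.

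**Figure D5:**
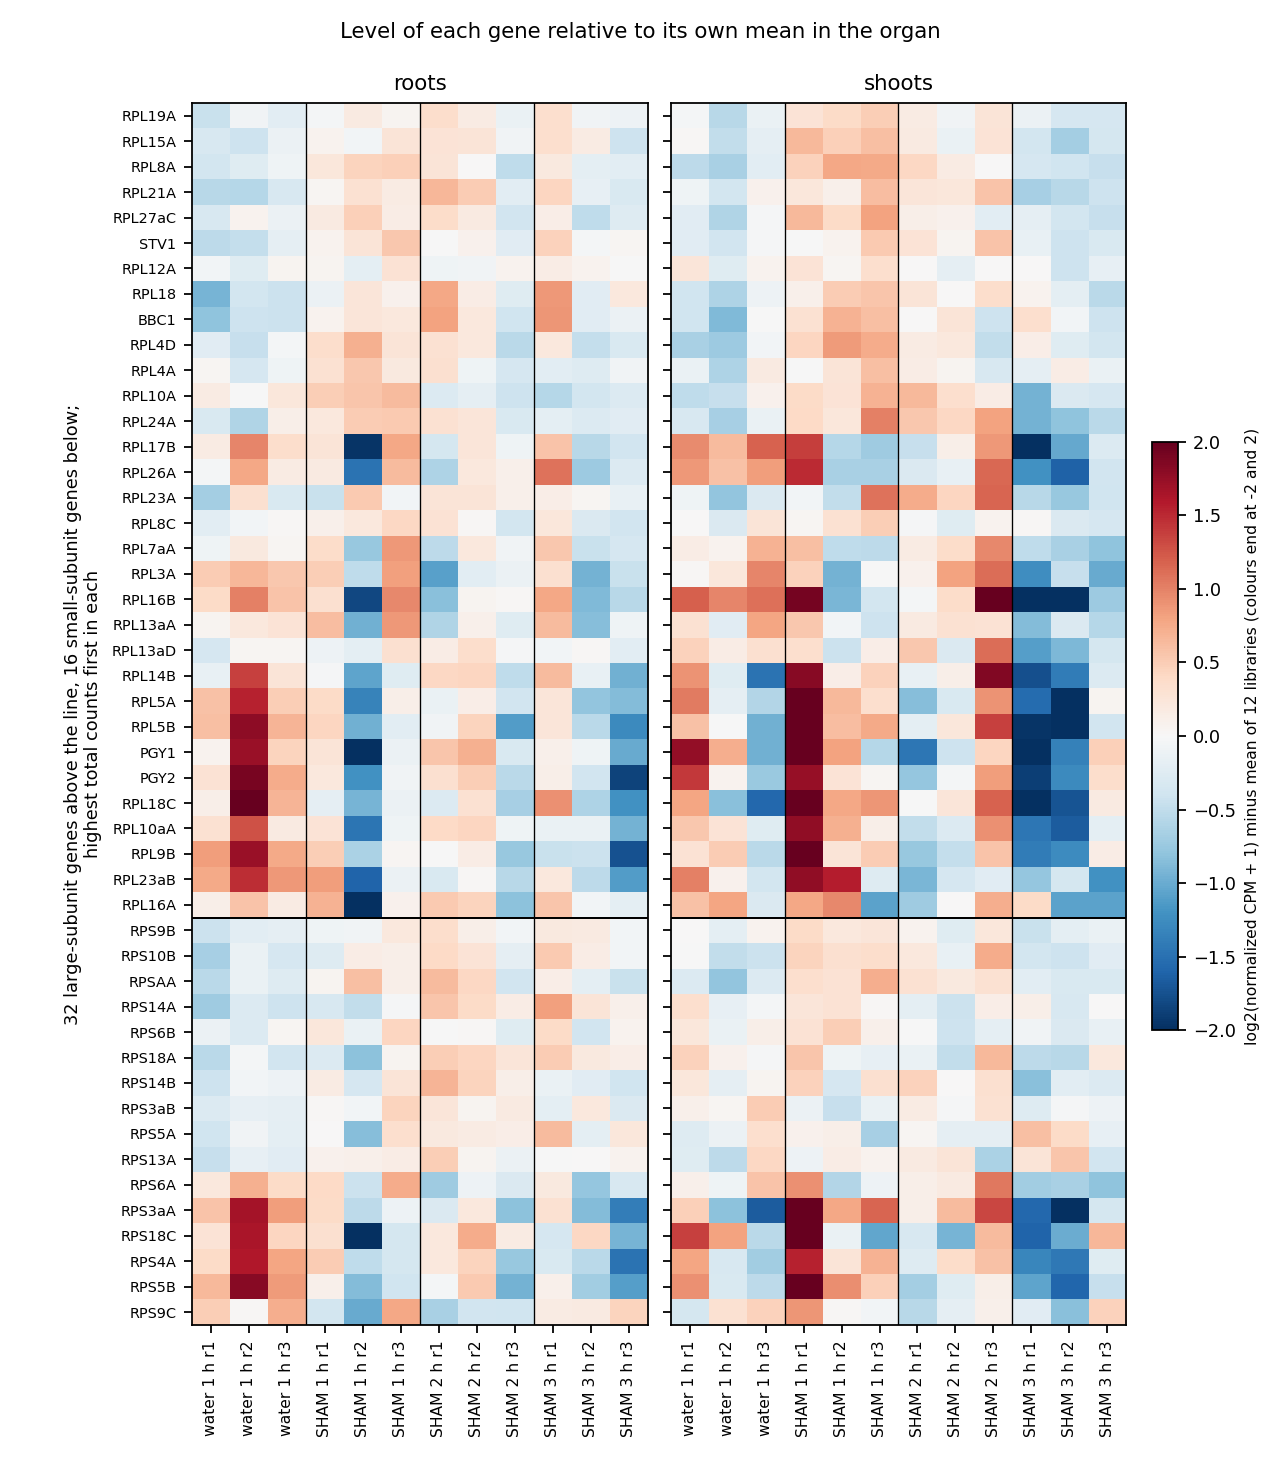
Log2 of the normalized level (CPM + 1) of each of the 48 genes in each library, minus its mean over the 12 libraries of the organ, with large-subunit genes above the line, small-subunit genes below it, and genes ordered by total counts within each; colours end at -2 and 2. Genes of lower count share their high and low libraries, with root water replicate 2 and shoot SHAM 1 h replicate 1, the shallowest of each organ, mostly at the high end.

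In water, every one of the 48 genes had a lower fitted level in shoots than in roots, and 25 were called lower and none higher, against 25.1% of all genes in each direction. The median log2 difference, shoot minus root, was -0.77 beside -0.12 over 11704 genes. Called were 20 of 32 large-subunit genes (median -0.80) and 5 of 16 small-subunit genes (median -0.57). The 33 genes of higher count had 13 calls and a median of -0.59 (-0.68 in the large and -0.35 in the small subunit). The 15 of lower count had 12 calls and a median of -2.01. Shoot water libraries were on average deeper than root water libraries. With the log2 library total in the fit the 12 genes of lower count were still called, with smaller differences such as -2.64 for RPL18C, -2.48 for RPS3aA, -2.03 for RPS5B and -1.30 for RPL14B.

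The lowest ratios were those of RPL18C and RPL23aB, both of lower count. On the scale normalized over all 24 libraries, RPL18C was at 65.1, 224 and 96.5 CPM in roots and 29.5, 8.98 and 5.32 CPM in shoots, -3.23 ± 0.67 (adjusted p = 0.000291), and RPL23aB, encoding a protein at the tunnel exit, was at 38, 58.1 and 41 and 9.53, 4.49 and 3.19 CPM, -3.09 ± 0.59 (adjusted p = 0.000113). The organs did not overlap in either gene. The smallest called differences were those of RPL19A, at 2328, 2765 and 2718 CPM in roots and 1836, 1327 and 1954 CPM in shoots, -0.61 ± 0.25 (adjusted p = 0.0421), and RPS9B, at 1874, 2017 and 2237 and 1287, 1161 and 1529 CPM, -0.62 ± 0.23 (adjusted p = 0.0258). RPS9B encodes a protein at the entry of the message channel, and neither gene's organs overlapped. The call of RPL19A ended in 15 of 24 omissions of 1 library (adjusted p up to 0.209) and that of RPS9B in 2. Those of RPL18C and RPL23aB held in all 24.

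RPL27aC was at 975, 1179 and 1122 CPM in root water and 493, 389.8 and 637 CPM in shoot water on the same scale, -1.11 ± 0.26 (adjusted p = 0.00111). RPSAA was at 918, 1127 and 1113 and 634, 455 and 714 CPM, -0.81 ± 0.28 (adjusted p = 0.0174), and in both genes all shoot libraries were lower. RPL4D was at 544, 430.1 and 619.8 and 253, 247 and 434 CPM, -0.77 ± 0.30 (adjusted p = 0.0386), with the highest shoot library just above the lowest root library, and its call ended in 8 of 24 omissions. RPL16B was at 215, 309 and 244 and 177, 156 and 187 CPM, -0.56 ± 0.68 (adjusted p = 0.511). RPL16B was not called although its organs did not overlap. The count of 25 went to 16 without shoot water replicate 2 and stayed between 19 and 30 with any other library left out. Scaling to library size alone called all 48 lower and moved the median of all genes to -1.19 and that of the members to -1.84, and median-ratio scaling moved that of all genes to -0.32. The share of all genes called lower under library size alone is not given here, so the count of 48 is not read as a result about these genes.

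Whether the SHAM response differed between organs was tested by the interaction of organ and treatment over all 24 libraries. At 1 h, 3 of the 48 genes were called with a more positive effect in shoots and none with a more negative one, against 1.97% and 3.96% of all genes, and the median of the differences was 0.17 (all genes -0.15). The 3 were RPL18C (3.12 ± 0.90, adjusted p = 0.0402), RPS3aA (3.00 ± 0.73, adjusted p = 0.0178) and RPS5B (2.84 ± 0.70, adjusted p = 0.0189). RPL18C was at 87.1, 325 and 129 CPM in root water, 70.7, 41.5 and 74.2 CPM in root SHAM 1 h, 22.5, 6.64 and 3.59 CPM in shoot water and 56.8, 22.4 and 24.1 CPM in shoot SHAM 1 h. In roots every SHAM value was below every water value, and in shoots every SHAM value but the lowest, which matched the highest of water, was above water.

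All 3 belong to the lower-count class, in which all 15 differences were positive (median 1.90), while the 33 of higher count had a median of -0.14 and no call. Depth rose from root water to root SHAM 1 h and fell from shoot water to shoot SHAM 1 h. With the log2 library total as a covariate all 3 were still called, with differences of 1.62, 1.90 and 1.59 for RPL18C, RPS3aA and RPS5B (adjusted p = 0.0473, 0.00968 and 0.0443). No member was called without root water replicate 2, shoot water replicates 2 or 3 or shoot SHAM 1 h replicate 1, while 5 were without shoot water replicate 1 and 6 without root SHAM 1 h replicate 1 or shoot SHAM 1 h replicate 3. At 2 h and 3 h none of the 48 was called by edgeR. Of all genes, 0.82% and 0.436% were called in the first direction and 2.52% and 1.29% in the other. Of the 48, 6 and 7 had an unadjusted edgeR p under 0.05, and DESeq2 called 2 and 0. These counts have none of all genes beside them and are not read as a result about the 48. At 2 h, 1 gene was called when any of 7 libraries was left out, among them shoot water replicate 1 and root SHAM 1 h replicates 1 and 2.

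The 48 genes include 15 pairs of paralogs, and the share of the counts of a pair that fell on its lesser copy was compared between organs, a comparison added after the values were seen. Shares are of counts at transcript ends and are compared between organs and not between genes. Organ labels were permuted within each treatment (160000 relabellings, two-sided exact permutation test) and p-values adjusted over the 15 pairs. RPL8C held 16.4% ± 1.28 (SD, n = 12) of the RPL8A and RPL8C counts in roots and 11.8% ± 2.74 (SD, n = 12) in shoots, a difference of -4.61 percentage points (exact permutation p = 1.25e-05, the smallest the relabellings can give; adjusted p = 0.000188). RPL24A held 34.3% ± 4.35 (SD, n = 12) of the RPL24A and STV1 counts in roots and 28.7% ± 5.26 (SD, n = 12) in shoots, and RPL4A 49.9% ± 3.79 (SD, n = 12) and 41.7% ± 5.63 (SD, n = 12) of the RPL4A and RPL4D counts. Both differences, of -5.65 and -8.24 percentage points, had an adjusted exact permutation p of 0.00175. These means and p-values join 4 treatments. In shoots the shares of RPL8C and RPL4A were lower at 1 h of SHAM than in water. The test therefore cannot separate a difference between organs from a response to SHAM that differs between them. A difference in water alone was not tested. The comparison was also added after the values were seen, so its p-values are given as a description and no conclusion is drawn from them. In water alone RPL8C held 17.8% ± 0.387 (SD, n = 3) in roots and 15.1% ± 0.758 in shoots, while RPL24A held 36.4% ± 3.54 and 26.1% ± 1.32. RPL4A held 51.9% ± 2.70 and 46.5% ± 3.62 in water, with overlapping ranges. After 1 h of SHAM RPL8C held 15.04% ± 0.799 and 9.06% ± 0.603. RPL4A then held 48.42% ± 1.234 and 35.24% ± 3.664, and RPL24A 36.14% ± 2.175 and 33.68% ± 2.601, the latter with overlapping ranges. Over all 12 libraries of each organ the ranges of roots and shoots overlapped in every pair. The other 12 pairs did not pass the threshold, the nearest being RPS14B, at 35.2% in roots and 40.1% in shoots (adjusted exact permutation p = 0.116), and the same 3 pairs passed without root SHAM 1 h replicate 1.

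The share of RPL8C also differed within shoots, between 14.3% and 15.8% in water, between 8.58% and 9.73% after 1 h, between 8.73% and 11.9% after 2 h and between 12.2% and 14.3% after 3 h. The 1 h and 2 h libraries lay below all water libraries. In roots it was between 17.4% and 18.1% in water, and the ranges after 1 h (14.2% to 15.8%) and 3 h (14.8% to 16.6%) also lay below water. The range after 2 h (16.5% to 17.5%) overlapped it. RPL4A held 43.4% to 50.5% of its pair in shoot water and 32.04% to 39.2% at 1 h of SHAM, without overlap. In roots the SHAM 1 h range of 47.0% to 49.22% just overlapped that of water, 49.2% to 54.6%. RPL24A held 24.6% to 27.0% of its pair in shoot water, 30.8% to 35.8% at 1 h and 31.8% to 33.7% at 2 h, both above water, and 18.6% to 25.1% at 3 h.

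The other 146 cytosolic ribosomal protein genes tested in shoots had 22 called higher and 1 lower at 1 h (15.1% and 0.685%, against 9.36% and 7.49% of all genes; median log2 fold change 0.62). They had 17 lower and none higher from 2 h to 3 h (11.6% lower, against 4.28%; median -0.52). In water, 85 of the 160 tested were lower in shoots and 1 higher (53.1% lower, against 25.1% of all genes; median -1.03). Genes for ribosome biogenesis had 6 of 18 higher (33.3%, against 9.36%) and 1 lower in shoots at 1 h. FIB1, a fibrillarin that methylates ribosomal RNA, had 1.43 ± 0.22, adjusted p = 0.000492, NUC-L1, a nucleolin of the nucleolus, 1.38 ± 0.28, adjusted p = 0.00419, and GAR1, of the pseudouridine-forming H/ACA particle, 1.26 ± 0.24, adjusted p = 0.00262. From 2 h to 3 h GAR1 and FIB1 were the 2 biogenesis genes lower, with -0.89 ± 0.24, adjusted p = 0.0366 and -0.78 ± 0.21, adjusted p = 0.039. In roots no biogenesis gene was called at 1 h, and 3 of 28 were lower at 3 h (10.7%, against 6.4%), namely NOP56-2, FIB2 and NUC-L1.

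Translation factors gave 2 calls of 33 in shoots at 1 h, both higher (6.06%, against 9.36% of all genes), and none of 33 at 2 h. In roots they gave 3 higher and 1 lower of 38 at 1 h (7.89% and 2.63%, against 7.01% and 5.22%). Growth regulators, mainly genes of the TOR and SnRK1 kinases, gave KIN11 higher in shoots at 2 h and RAPTOR1 higher from 2 h to 3 h, with no other call in the comparisons of SHAM with water. Plastid ribosomal protein genes had none of 32 called in shoots at 1 h and 10 of 30 called higher in roots at 1 h (33.3%, against 7.01%), where replicate 1 also held the 1.19% of shoot marker counts; the part of that library in the 10 calls was not tested. Cell division genes, 7 in all, summed to 44.4 to 92.7 CPM in root water and 12.6 to 43.3 CPM at 1 h of SHAM, and in shoots to 5.80 to 10.4 CPM in water, 7.84 to 15.8 CPM at 1 h and 3.15 to 8.15 CPM at 3 h, with 3 to 5 of the 7 at 0 in the 3 h libraries. Their part in the ribosomal protein values was not tested.

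In the authors' deposited table, whose adjusted p-values come from their own run, 8 of the 48 genes had an adjusted p under 0.05 and were higher in shoots at 1 h, 4 at 2 h and none at 3 h, where 5 were lower. In roots the authors' deposited table gave 1 higher and 1 lower at 1 h, 2 higher at 2 h and 2 higher and 4 lower at 3 h, and for shoot against root in water 30 lower and none higher. No count of all genes under adjusted p alone is set beside these, so they are not read as a result about the 48. A stricter rule, an adjusted p under 0.05 with at least a 2-fold change, was counted over all 16183 genes of the authors' deposited table. It gave 1021, 1117 and 598 genes in either direction in shoots at 1, 2 and 3 h. In roots it gave 1247, 1288 and 1489 genes, and 6099 for shoot against root in water. Of the 48, that rule gave 3 and 1 higher in shoots at 1 h and 2 h and 5 lower at 3 h. In roots it gave 1 lower at 1 h, none at 2 h and 4 lower at 3 h. For shoot against root in water 20 were lower.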

How the data were processed

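The 48 genes and all lists were chosen with earlier results of these data known. Per the labels' protocols, the libraries were made by MARS-seq, which sequences the 3' ends of transcripts, and the submitters' processing notes name STAR 2.4.2a and HTSeq beside cutadapt, bcl2fastq and DESeq2; the genome build, the use of strand and the collapsing of molecular identifiers are not given in the sources used here. The authors deposited raw counts of 16183 genes in each library, all whole numbers, which were the values tested, and for each of their comparisons a log2 fold change, whose sign was turned, and a p-value with its adjusted value, which were copied. A further 48 columns of per-sample values were not used. Matching to RefSeq TAIR10.1 gave 16082 of the locus names; no coordinates or sequences are printed because the build of the files is not given.

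Counts were tested in R 4.3.3 with edgeR 4.0.16 (limma 3.58.1): filterByExpr with min.count 10 and min.total.count 15, TMM scaling, a quasi-likelihood test and Benjamini-Hochberg adjustment over all genes tested (10642 in roots, 8570 in shoots, 11704 in fits of both organs), with a call at adjusted p under 0.05. Comparisons within an organ used a fit of its 12 libraries, and those between organs a fit of all 24. Standard errors were taken from the size of the log2 fold change and the F statistic, and levels are normalized CPM on the scale of the 12 libraries unless said otherwise. The replicates are pools of 30 to 50 seedlings, and p-values measure the spread between them. Replicates of a group differed by more than sampling noise. DESeq2 1.42.0 was an alternative. Figures were drawn with python 3.11.15, numpy 2.4.6, pandas 2.3.3 and matplotlib 3.10.9.

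Values per library are given for RPSAA, RPL4D, RPL27aC and RPL16B and for the 2 highest and 2 lowest members called in a comparison; RPL24A, RPL18, RPL10A and RPL21A were added after their values were seen. Up to 3 genes of each other list with a mean of at least 10 CPM are named by size of change.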

Additional observations from a re-analysis of the deposited data

Results flagged for a closer look

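The effect of 1 h of SHAM differed between shoots and roots for 3 of the 48 genes by the interaction term of the edgeR fit over 24 libraries (adjusted p under 0.05 over 11704 genes). The log2 differences, shoot effect minus root effect, were 3.00 for RPS3aA (adjusted p = 0.0178), 2.84 for RPS5B (adjusted p = 0.0189) and 3.12 for RPL18C (adjusted p = 0.0402). In each of these genes all 3 root SHAM libraries were below all 3 root water libraries. All 3 are of the lower-count class whose level ran opposite to library depth, mean totals moved from 1545890 to 2554840 counts in roots and from 2173880 to 1664980 in shoots, and each was still called with the log2 library total in the fit, with smaller differences of 1.90, 1.59 and 1.62 in the order given. The interaction call of each ended when root water replicate 2, shoot water replicate 2, shoot water replicate 3 or shoot SHAM 1 h replicate 1 was left out, with adjusted p up to 0.0646, 0.085 and 0.142 in that order of genes. That of RPL18C also ended without root water replicate 3, root SHAM 1 h replicate 2 or shoot SHAM 1 h replicate 2, which makes 7 of 24 omissions.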

How the results depend on the processing

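Single values were followed for the members called in a comparison and for RPSAA, RPL4D, RPL27aC and RPL16B, and none of these reversed with a call under the alternatives run. Of these values, 862 kept their side of the threshold under alternatives other than the omission of 1 library, 130 lost the call and 2 gained it; with 1 library left out the numbers were 1170, 221 and 1. Counts of members called that moved by over 1.5 times follow, and the cause was not tested except where fewer libraries or a stricter threshold define the setting. The share of all genes called under each alternative is not set beside these counts. Median-ratio size factors gave 5 at root 3 h (8 reported), as did TMM factors without ribosomal protein genes. Library size alone gave 9 at root 2 h, 3 at shoot 1 h, 1 at shoot 2 h, 5 at shoot 3 h, 48 for water and 2 for the organ difference at 2 h. No filter gave 4 at root 1 h, 5 at shoot 3 h and 1 for the organ difference at 2 h. DESeq2 gave 7 at shoot 3 h, 2 for shoot 2 h against 1 h, 18 for shoot 3 h against 2 h, and 5 and 2 for the organ differences at 1 h and 2 h. An adjusted p under 0.01 gave 0, 0 and 1 in roots at 1, 2 and 3 h, 4, 0 and 0 in shoots, 0 for root 2 h against 1 h, 1 for shoot 3 h against 2 h, 14 for water and 0 for the organ difference at 1 h. With only the groups compared in the fit there were 15 at root 2 h, 7 at shoot 3 h, 0 for root 2 h against 1 h, and 1 and 1 for the organ differences at 1 h and 2 h. With all 24 libraries there were 1 at root 1 h, 4 at shoot 1 h, 2 at shoot 2 h and 0 for root 2 h against 1 h.

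The labels do not say that replicate numbers pair the samples. Deviations of same-numbered libraries correlated between -0.452 and 0.462 in roots and -0.526 and 0.489 in shoots. Those of other numbers ran from -0.549 to 0.45 and from -0.455 to 0.467. Between roots and shoots of one treatment the same-numbered ran from -0.395 to 0.385 and the others from -0.578 to 0.664. Deviations from means of 3 libraries are tied to one another, so these ranges cannot settle whether numbers mark pairs. A replicate block gave 1 at root 1 h, 1 at shoot 3 h, 5 for shoot 3 h against 2 h and 1 for the organ difference at 2 h. The log2 library total as a covariate was chosen after seeing the data. It gave 0 and 12 at root 1 h and 2 h and 0 for root 2 h against 1 h. In shoots it gave 18, 11 and 13 at 1, 2 and 3 h, and 4 and 26 for the steps. For the organ differences at 2 h and 3 h it gave 4 and 4. The share of all genes called in that fit is not given here, so these counts are not read as a result about the members. Leaving out root SHAM 1 h replicates 1 and 2, also chosen afterwards, gave 0, 7 and 13 in roots, 0 for root 2 h against 1 h, and 0 and 1 for the organ differences at 1 h and 2 h.

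With any 1 library left out, counts ran from 0 to 6, 0 to 9 and 2 to 12 in roots at 1, 2 and 3 h, from 2 to 11, 0 to 4 and 0 to 8 in shoots, from 0 to 1 for root 2 h against 1 h, 0 to 0 for root 3 h against 2 h, 0 to 3 and 1 to 13 for the shoot steps, 16 to 30 for water, and 0 to 6, 0 to 1 and 0 to 0 for the organ differences. Shares of counts moved by less than 1 SD without organelle-encoded genes in the total. The 15 genes of lower count rest on 179 to 3351 counts a library in sum, which limits what their levels show. Genes of the same range of counts mostly did not run opposite to depth (median r 0.152 in roots and 0.11 in shoots).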

Other observations

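A set of 7 members of middle count, RPL17B, RPL26A, RPL16B, RPL3A, RPL13aA, RPL7aA and RPS6A, singled out after their values were seen and given without a test, shared the same libraries at their low end. In root SHAM 1 h each was lowest in replicate 2, for example RPL26A at 659, 209 and 908 CPM in replicates 1 to 3 and RPL17B at 779, 166 and 1107 CPM. In shoot SHAM 1 h each was highest in replicate 1, RPL26A at 479, 109 and 108 CPM and RPL17B at 394, 101 and 91.4 CPM, and replicate 1 was the shallowest shoot library with 885920 counts. In shoots after 3 h every library of each lay below its lowest water library. RPL16B, RPL17B and RPL3A are also the genes called lower there. The share of all genes separated in this way is not given here, so this is not read as a result about the set.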
